A study of Mus musculus with 48 samples.

Results

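The Gadd45 family of the mouse holds Gadd45a, Gadd45b and Gadd45g, which encode small stress proteins of related sequence, and Gadd45gip1 was described with them because its protein binds all of theirs. The 4 genes were taken by symbol from a table of 51789 gene IDs, and all 4 passed the filter on low counts in both fits described below. Gadd45b was chosen by its calls in earlier tests of these data, in wild-type M1 macrophages given AP-3-84, between p53 knockout and wild-type M1 macrophages given vehicle, and between ascites and thioglycollate macrophages. Those comparisons are therefore described for all 4 genes with no test, and so are the differences built on them. Gadd45b alone is also given no test in 5 further comparisons that share libraries with those, the responses of ascites, thioglycollate and knockout M1 cells and M1 against M0 in each genotype.

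The series holds 48 libraries of mouse macrophage RNA, 3 in each of 16 groups, read by 3′ mRNA sequencing, in which a read marks a transcript's end. The groups pair 8 macrophage populations with 4 h of either 10 µM AP-3-84, a compound known here only by its code name, or its DMSO vehicle. Ascites macrophages (ascites) were the F4/80+ cells, sorted with magnetic beads, of peritoneal washes of mice labelled B6(Cg)-Tyrc-2J/J, taken 45 days after injection of ID8 cells, a mouse ovarian surface epithelial tumour line. Thioglycollate macrophages (thio) were F4/80+ peritoneal cells sorted the same way from wild-type C57BL/6 mice, 4 days after thioglycollate (1 ml, 3%), which causes a sterile peritonitis. Strain, eliciting agent and day therefore differ together between these 2 populations. The other 6 populations were grown from bone marrow with M-CSF (10 ng/mL, 6 days). M0 cells received nothing more, M1 cells received LPS (100 ng/mL) with interferon-γ (50 ng/mL) for a further 24 h, and M2 cells IL-4 plus IL-13 (10 ng/mL of both) for as long. Titles and descriptions divide them into wild-type (WT) and p53 knockout (KO) cells, whereas the genotype field calls every one of them wild-type C57BL/6, and the knockout allele is not given in the sources used here. The labels do not say that the 3 libraries of a group came from separate animals or cultures, so p-values measure only the spread between these libraries, which may be technical.

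GADD45 proteins have no enzyme activity of their own and act by binding partners. They bind and activate the kinase MAP3K4 (MTK1), which feeds p38 and JNK; they bind the cyclin B1 and CDK1 pair, PCNA and p21 and so touch the cell cycle; and they bring DNA glycosylases and repair enzymes to methylated DNA. Gadd45a is a classical p53 target that DNA damage induces, Gadd45b is induced by NF-κB and TGF-β signalling and was first described as a myeloid differentiation gene, and Gadd45g is induced by cytokines. Gadd45gip1 (CRIF1) encodes a protein of the large subunit of the mitochondrial ribosome, needed for the synthesis of membrane proteins of the respiratory chain.

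In GENCODE M21 (GRCm38), Gadd45a lies on the minus strand of chromosome 6 (67035096 to 67037457), Gadd45b on the plus strand of chromosome 10 (80930073 to 80932204), Gadd45g on the plus strand of chromosome 13 (51846678 to 51848468) and Gadd45gip1 on the plus strand of chromosome 8 (84831522 to 84835482). All 4 are protein-coding, and the longest transcripts of Gadd45a, Gadd45b and Gadd45g have 4 exons each and that of Gadd45gip1 has 2. Of the stretches of 30 bases in their exons, none of Gadd45a, Gadd45b or Gadd45g occurs in the exons of another gene, and 5 of 2465 of Gadd45gip1 occur in Strn4. Gadd45a overlaps the noncoding E230016M11Rik on the other strand. Whether the counting used strand is not given in the sources used here, so the values of Gadd45a and of Gadd45gip1 may include reads of the opposite strand. E230016M11Rik had 0 to 8 counts in a bone marrow-derived library and 2 to 30 in a peritoneal one.

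The upstream sequences of the 3 stress genes are shown because the genes were called in different populations. Each runs from 250 to 51 bases before the RefSeq start site (GRCm38.p6), 5′ to 3′ on the gene's strand, at chr6:67037458-67037657 (minus), chr10:80929841-80930040 (plus) and chr13:51846425-51846624 (plus). Capitals mark matches, on either strand, to the CCAAT box (CCAAT), the GC box (GGGCGG), the octamer (ATTTGCAT) or the ATF4 composite element (TGATGNAA).
Gadd45a: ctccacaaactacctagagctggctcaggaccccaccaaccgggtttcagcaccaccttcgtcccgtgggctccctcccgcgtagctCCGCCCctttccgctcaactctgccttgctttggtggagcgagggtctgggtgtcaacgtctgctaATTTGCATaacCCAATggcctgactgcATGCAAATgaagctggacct
Gadd45b: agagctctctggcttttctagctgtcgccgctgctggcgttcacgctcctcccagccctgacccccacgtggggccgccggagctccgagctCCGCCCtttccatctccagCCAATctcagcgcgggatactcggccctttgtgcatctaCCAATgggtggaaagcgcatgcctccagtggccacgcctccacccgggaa
Gadd45g: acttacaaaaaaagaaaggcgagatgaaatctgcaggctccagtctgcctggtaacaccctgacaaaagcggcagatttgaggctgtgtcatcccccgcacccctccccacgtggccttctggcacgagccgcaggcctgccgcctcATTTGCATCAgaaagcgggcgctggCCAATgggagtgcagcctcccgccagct

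The octamer had 2 matches in Gadd45a, 1 in Gadd45g and 0 in Gadd45b, and 1.32% of 32851 RefSeq windows of the same length hold it. In Gadd45g it overlapped the only match to the ATF4 composite element, which 2.72% of windows hold. A CCAAT box occurred in all 3 windows, with 2 matches in Gadd45b, and in 28.4% of windows. A GC box occurred in Gadd45a and Gadd45b and in 24.6% of windows. None of the 3 windows held a match to AP-1 (TGANTCA), the cyclic AMP response element (TGACGTCA), or the heat shock element (GAANNTTC), nor to the ISRE, NF-kB or p53 motifs, which are given by name. A match is a description of these letters and not a bound site. The windows leave out the bases nearest the start site, the introns and more distant sequence, so a motif there would be missed.

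A peritoneal library (n = 12) held 15532373 to 19417581 counts and a bone marrow-derived library (n = 36) 3081707 to 4645148, and the 2 sets were fitted apart and are not compared. All 8 macrophage markers were detected in every group, with summed levels of 5970 to 49100 CPM (counts scaled by TMM to a common library total) in bone marrow-derived cells and 23900 to 34800 CPM in peritoneal cells. Cdkn1a, the p53 target that encodes p21, was at 555 to 1120 CPM in 18 WT libraries and at 34.1 to 292 in 18 KO libraries, with no overlap. Mdm2, another p53 target, was at 146 to 444 CPM in WT and 52.8 to 218 CPM in KO libraries, which overlapped. The overlap came from KO M1 libraries, at 173 to 218 CPM, while KO M0 and M2 libraries reached at most 81.9 CPM. In M1 vehicle cells mean Mdm2 was 200 CPM in KO and 181 CPM in WT, and mean Cdkn1a was 232 and 672 CPM. The genotypes were thus less distinct by these 2 genes in M1 cells. Trp53 itself was at 4.79 to 13.2 CPM in WT and 2.7 to 9.11 in KO libraries, and a 3′ tag outside a deleted part would not show the deletion. The libraries least like their group mates were KO M0 AP-3-84 replicate 3 and WT M2 vehicle replicate 1, with mean correlations of 0.936 and 0.9393. A gene is called at an adjusted p under 0.05 in edgeR's quasi-likelihood test with Benjamini-Hochberg adjustment over all genes of a fit, two-sided, and every adjusted p below comes from it. Fold changes are on the log2 scale with their standard error (SE), n = 3 libraries a group, and intervals are the estimate ± 2 SE. The share of all genes whose libraries do not overlap was not computed. The shares of genes called below are no measure of how rare such a separation is.

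Of 63 tests of the 4 genes, 13 were called, 6 of 12 for Gadd45b, 5 of 17 for Gadd45g and 1 of 17 each for Gadd45a and Gadd45gip1. Over the 17 tested comparisons, the share of all genes called ran from 0% (response of KO M1 cells) to 44.5% (KO M1 against M0). The pooled counts are therefore read with the share of each comparison below. In bone marrow-derived cells, Gadd45b ran from 5.74 CPM in a WT M0 vehicle library to 131 in a KO M1 library given AP-3-84. By group mean its order was KO M1 with AP-3-84 (113 CPM), KO M1 vehicle (109), KO M2 with AP-3-84 (76.6), KO M2 vehicle (44.6), WT M2 vehicle (38.8), WT M1 with AP-3-84 (31.6), KO M0 with AP-3-84 (27.4), WT M2 with AP-3-84 (22.2), KO M0 vehicle (12.2), WT M1 vehicle (11.2), WT M0 vehicle (6.83) and WT M0 with AP-3-84 (6.73). Both KO M1 groups lay apart from the next group down, and so did KO M2 with AP-3-84, while from KO M2 vehicle down to WT M2 with AP-3-84 each group overlapped the next. Gadd45g ran from 1.43 to 37.7 CPM over the same 36 libraries, with WT M2 cells given AP-3-84 on top at 31.7 ± 5.91 CPM (SD, n = 3), and no group stood clear of its neighbour in the order. Gadd45a had 3 to 121 counts in a bone marrow-derived library, and its intervals there are wide. Its mean was highest in the KO M1 groups, at 22.3 and 13.4 CPM with and without AP-3-84. Gadd45gip1 stayed between 34.7 and 89.5 CPM in bone marrow-derived libraries and between 22.2 and 36.5 in peritoneal ones.

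**Figure D1:**
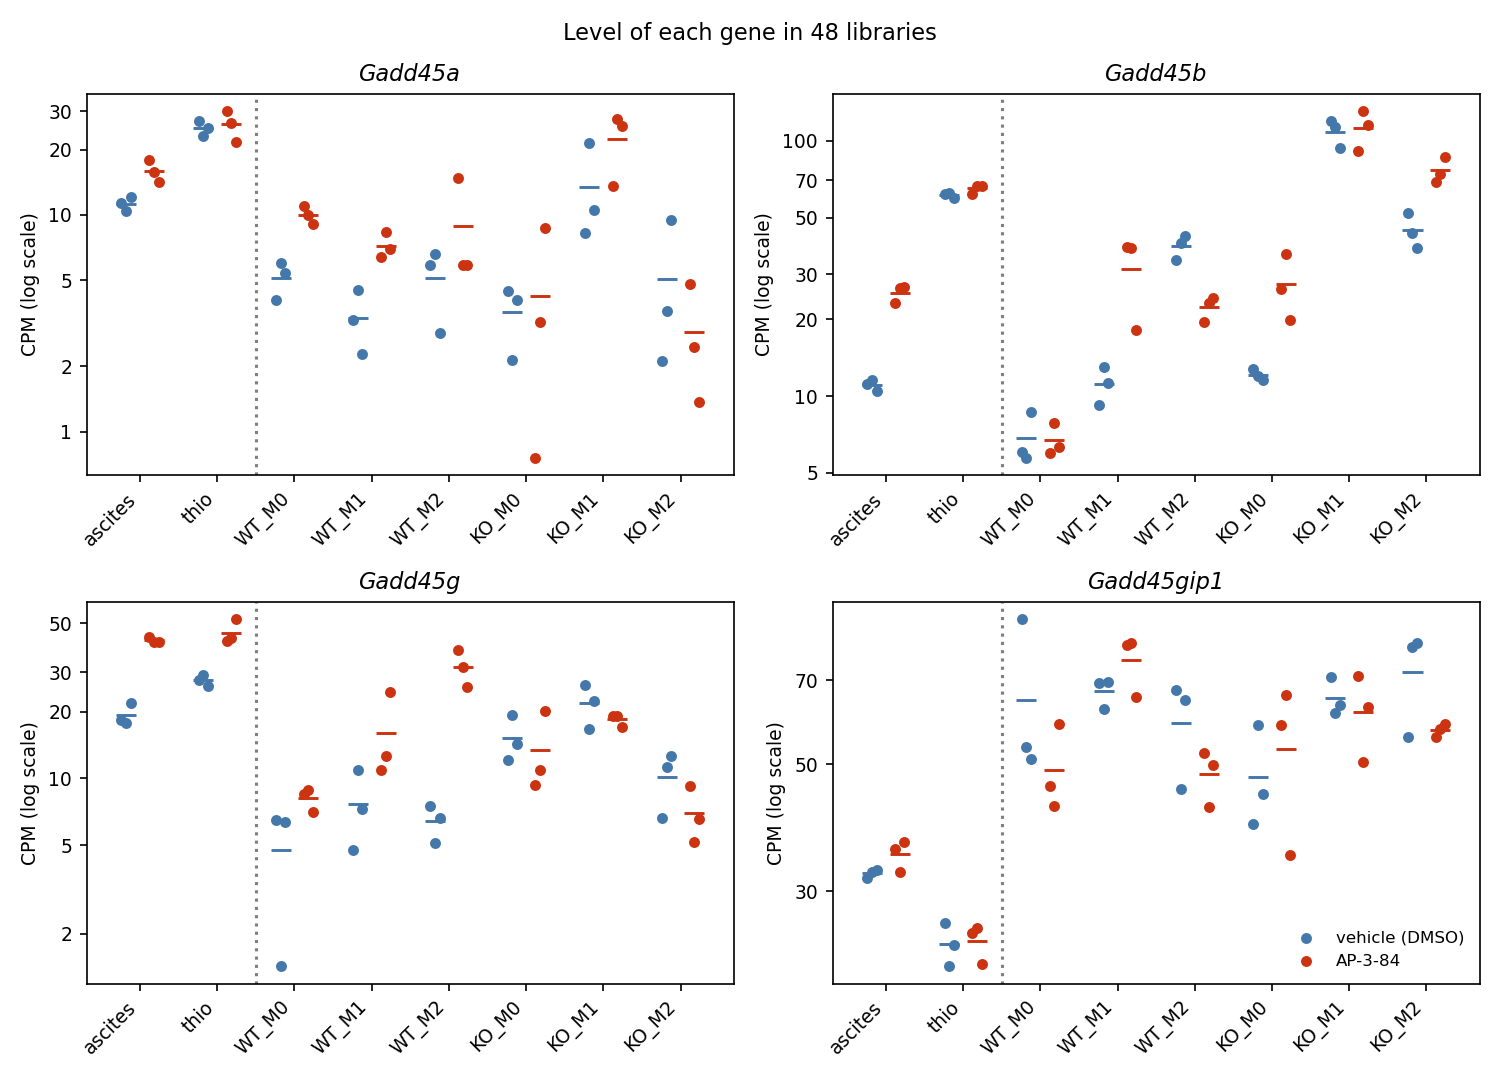
Level of each gene (y axis, CPM on a log scale) in each of 48 libraries, by population (x axis) and treatment (blue, vehicle; red, AP-3-84); points are libraries, bars are group means, and the dotted line separates peritoneal from bone marrow-derived libraries, which were scaled apart. Right of the dotted line, Gadd45b spans 5.74 to 131 CPM and Gadd45gip1 spans 34.7 to 89.5 CPM.

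AP-3-84 raised Gadd45g in ascites and in thioglycollate macrophages. In ascites cells Gadd45g was at 18.3, 17.8 and 21.8 CPM with vehicle and at 43.2, 41.1 and 41.1 CPM with AP-3-84. All treated libraries lay above all vehicle libraries, a rise of 1.11 (SE 0.108, adjusted p = 7.22e-06). Gadd45b, described without a test, was at 11.2, 11.6 and 10.5 CPM with vehicle and at 23.1, 26.4 and 26.7 CPM with AP-3-84 in the same cells. Its libraries separated as well, with a log2 difference of 1.19 (SE 0.0899, 2.28-fold). Gadd45a was at 11.3, 10.4 and 12.1 CPM with vehicle and 17.9, 15.8 and 14.2 CPM with AP-3-84, higher in 3 of 3 treated libraries but not called (log2 difference 0.50, SE 0.135, adjusted p = 0.0788). Thus 1 of 3 tested members was called in ascites macrophages, where 1.79% of 16955 genes were.

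In thioglycollate macrophages Gadd45g was at 27.7, 29.3 and 26.2 CPM with vehicle and at 41.4, 42.7 and 52 CPM with AP-3-84. The treated libraries lay above all vehicle libraries, a rise of 0.71 (SE 0.106, adjusted p = 0.000603). This call was lost when all 48 libraries shared 1 fit (adjusted p = 0.464). Gadd45b, at 61.9, 62.6 and 59.7 CPM with vehicle, was at 61.9, 66.8 and 66.7 CPM with AP-3-84, and the groups overlapped. Its log2 difference was 0.09 (SE 0.0824), given without a test. Gadd45a overlapped as well (0.06, interval -0.20 to 0.32). In these cells 1 of 3 tested members was called, against 4.32% of all genes.

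Between the 2 peritoneal populations given vehicle, the 3 stress genes were all lower in ascites cells, as a description of the comparison that chose Gadd45b. Gadd45b differed by -2.46 (11.1 ± 0.557 against 61.4 ± 1.51 CPM), Gadd45a by -1.15 (11.3 ± 0.826 against 25 ± 2.03) and Gadd45g by -0.52 (19.3 ± 2.18 against 27.7 ± 1.57; SD, n = 3). Gadd45gip1 was the other way, by 0.41, and none of the 4 genes' libraries overlapped. Of all genes, 33.7% were called there and 40.2% had an unadjusted p under 0.05 in edgeR's test. The response to AP-3-84 differed between the populations by 1.11 for Gadd45b, 0.44 for Gadd45a, 0.40 for Gadd45g and 0.09 for Gadd45gip1, where 0.118% of genes were called. The ascites and thioglycollate responses given above use these same libraries and are no independent support for that difference. The 6 epithelial or tumour markers summed to 156 to 201 CPM in ascites libraries and 1.46 to 3.7 CPM in thioglycollate libraries, where Epcam was at 0 in every library and Msln in those given vehicle. Their part in the members' values was not tested, and in bulk libraries fewer cells of a type and less RNA per cell cannot be told apart.

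In WT bone marrow-derived macrophages given AP-3-84, Gadd45g rose in M2 cells, and it was the one called member of the tested WT responses. It was at 7.51, 5.13 and 6.65 CPM with vehicle and at 37.7, 31.6 and 25.8 CPM with AP-3-84. The groups did not overlap, a rise of 2.29 (SE 0.376, 4.90-fold, adjusted p = 0.000789). Gadd45b lay the other way in the same libraries, at 34.2, 39.8 and 42.4 CPM with vehicle and 19.5, 23.1 and 24.2 CPM with AP-3-84. All treated libraries were below all vehicle libraries, yet the difference of -0.80 (SE 0.224) was not called (adjusted p = 0.0687). It was called by DESeq2 (adjusted p = 0.0283), with no filter on low counts (0.0252) and with all 48 libraries in 1 fit (0.0207), and its adjusted p without WT M2 vehicle replicate 1 was 0.083. Gadd45a gave 0.77 (interval -0.32 to 1.86) with overlapping libraries. In WT M2 cells 1 of 4 members was called, against 1.21% of 11779 genes. The 6 neutrophil markers summed to 3730, 543 and 412 CPM in WT M2 vehicle libraries and 486, 377 and 182 CPM with AP-3-84. Without the vehicle library at 3730 CPM, Gadd45g's rise was 2.42 (SE 0.446, adjusted p = 0.00488).

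In WT M0 cells no member was called, where 0.144% of genes were. Gadd45a was at 4.04, 5.97 and 5.37 CPM with vehicle and 11, 9.96 and 9.09 CPM with AP-3-84, and Gadd45g at 6.51, 1.43 and 6.39 CPM and 8.5, 8.91 and 7.07 CPM. Both were above all vehicle libraries in 3 of 3 treated libraries, with wide intervals (-0.09 to 2.02 for Gadd45a and -0.03 to 1.57 for Gadd45g). Gadd45b overlapped between the groups (-0.02, interval -0.57 to 0.54). In WT M1 cells, the population that chose Gadd45b, all treated libraries lay above all vehicle libraries for each of the 3 stress genes. Gadd45b was at 9.24, 13 and 11.3 CPM with vehicle and 38.4, 38.1 and 18.2 CPM with AP-3-84 (log2 difference 1.5, SE 0.238). Gadd45a differed by 1.11 (3.35 ± 1.12 against 7.22 ± 0.987 CPM) and Gadd45g by 1.05 (7.64 ± 3.06 against 16 ± 7.39 CPM; SD, n = 3). In that comparison 0.017% of genes were called, and 7.28% had an unadjusted p under 0.05 in edgeR's test. The 6 neutrophil markers summed to 430 to 560 CPM in WT M1 vehicle libraries and 654 to 1300 CPM in those given AP-3-84, and their part in these values was not tested.

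In p53 knockout macrophages given AP-3-84, the one called member among the tested responses was Gadd45b, in M0 cells. It was at 12.8, 12 and 11.6 CPM with vehicle and at 26.3, 36 and 19.9 CPM with AP-3-84. Every treated library was above every vehicle library, a rise of 1.17 (SE 0.237, adjusted p = 0.000652). KO M0 was the population with the most calls, 20.7% of genes, so 1 of 4 members is close to the share of all genes. Without the treated replicate least like its group mates the rise was 1.36 (SE 0.244, adjusted p = 6.48e-05). Gadd45g overlapped there (-0.18, interval -0.89 to 0.53), as did Gadd45a, whose treated libraries ranged from 0.758 to 8.74 CPM. In KO M0 libraries the neutrophil markers summed to 521 to 643 CPM with vehicle and 269 to 424 CPM with AP-3-84, and the B cell markers, of which Cd79b alone was detected, to 2.16 to 5.23 and 6.62 to 22.7 CPM, neither with overlap. The macrophage markers summed to 32500 to 39100 CPM with vehicle and 18100 to 39200 CPM with AP-3-84. Their part in the rise of Gadd45b was not tested.

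In KO M1 cells Gadd45b was already high with vehicle, at 119, 113 and 93.7 CPM, and was at 91.4, 131 and 115 CPM with AP-3-84. The groups overlapped, and the log2 difference was 0.05 (SE 0.205), given without a test because these vehicle libraries entered a comparison that chose the gene. In this population edgeR called 0% of genes, none of 11779, with 206 at an unadjusted p under 0.05, and DESeq2 called 0 as well; with no filter on low counts edgeR called 29. Gadd45g was at 26.4, 16.7 and 22.3 CPM and at 19.2, 19.1 and 17 CPM, and the groups overlapped. In KO M2 cells Gadd45b was at 52, 43.7 and 37.9 CPM with vehicle and 69.1, 74.2 and 86.5 CPM with AP-3-84. The groups did not overlap, yet the difference of 0.78 (SE 0.212) was not called (adjusted p = 0.137), in a comparison in which 0.0509% of genes were. It was called with no filter on low counts (adjusted p = 0.016), with all 48 libraries in 1 fit (0.0487) and without KO M2 vehicle replicate 1 (0.0263).

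**Figure D2:**
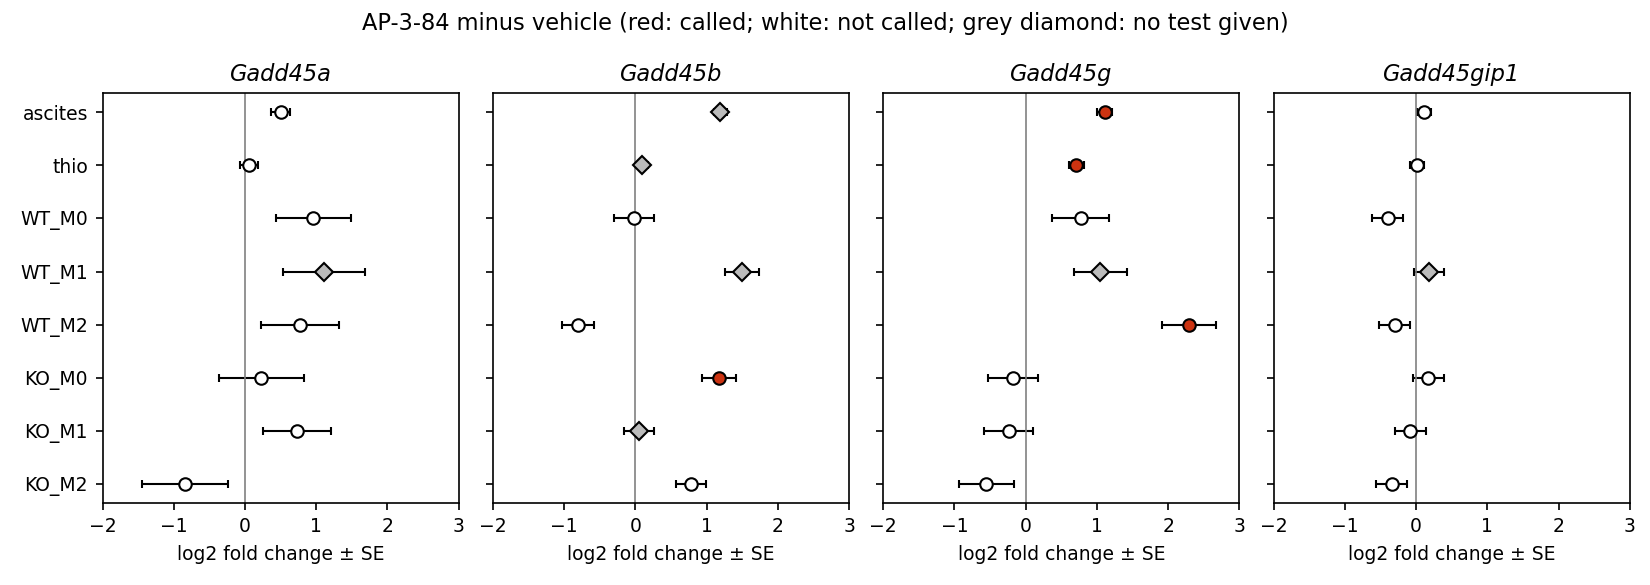
Log2 fold change of AP-3-84 minus vehicle (x axis, points, with bars of 1 SE) of each gene in each population (y axis); red points were called, white points were not, and grey diamonds carry no test, because the comparison chose Gadd45b or shares libraries with one that did. Called values are 1.17 for Gadd45b in KO_M0 cells, and 1.11, 0.71 and 2.29 for Gadd45g in ascites, thio and WT_M2 cells.

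The M2 response of both Gadd45b and Gadd45g differed between the genotypes, in opposite directions. For Gadd45b the response in KO M2 cells exceeded that in WT M2 cells by 1.58 (SE 0.308, interval 0.97 to 2.20, adjusted p = 0.00547), with treated libraries above vehicle libraries in 3 of 3 KO and below them in 3 of 3 WT. For Gadd45g the difference was -2.85 (SE 0.537, interval -3.92 to -1.77, adjusted p = 0.00461). Its KO libraries were at 6.63, 11.3 and 12.6 CPM with vehicle and 9.24, 5.16 and 6.59 CPM with AP-3-84 and overlapped, against the separation in WT cells given above. Both differences passed the test in all 19 alternative fits, including those that left out 1 library each. In this comparison 2 of 4 members were called, against 1.77% of genes. The neutrophil markers summed to 319, 586 and 3050 CPM in KO M2 vehicle libraries and 507, 265 and 261 CPM with AP-3-84. Without the vehicle library at 3050 CPM the differences were 1.48 for Gadd45b (SE 0.327, adjusted p = 0.0293) and -2.67 for Gadd45g (SE 0.567, adjusted p = 0.0249). Without WT M2 vehicle replicate 1 they were 1.69 (SE 0.322, adjusted p = 0.00572) and -2.96 (SE 0.588, adjusted p = 0.00753). The macrophage markers summed to 5970 to 18500 CPM in KO M2 vehicle libraries and 13900 to 19100 CPM with AP-3-84. In WT M2 libraries they summed to 25000 to 31000 CPM with vehicle and 23500 to 26300 CPM with AP-3-84. The part of either marker set in the response differences was not tested.

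**Figure D3:**
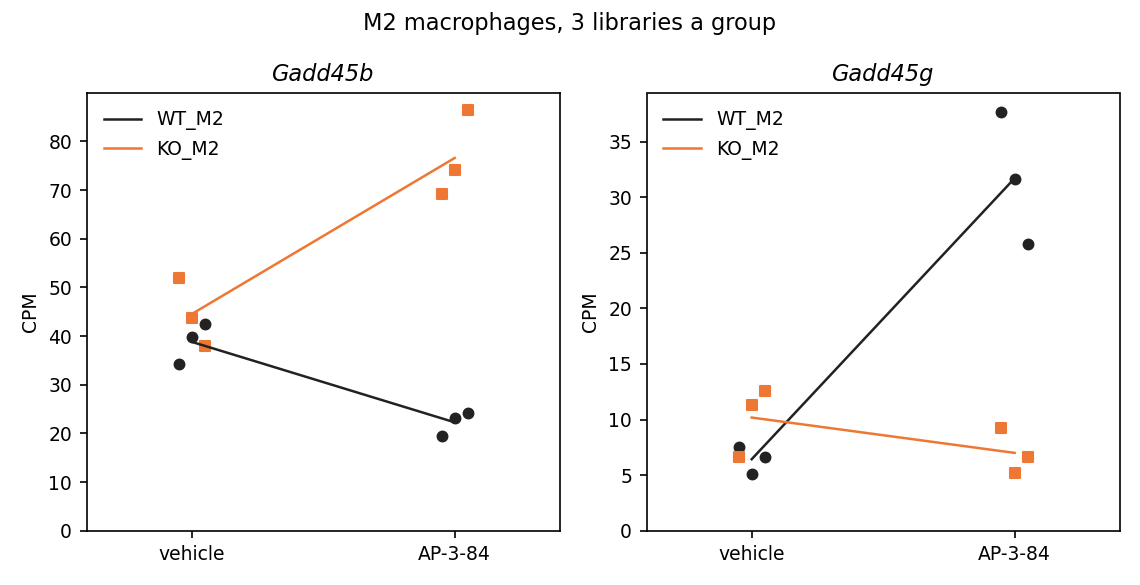
Level (y axis, CPM) of Gadd45b and Gadd45g in M2 macrophages given vehicle or AP-3-84 (x axis); black circles are WT libraries, orange squares KO libraries, and lines join group means. Mean Gadd45b is 38.8 CPM without and 22.2 CPM with AP-3-84 in WT cells, and 44.6 and 76.6 CPM in KO cells; mean Gadd45g is 6.43 and 31.7 CPM in WT, and 10.2 and 7 CPM in KO cells.

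In M0 cells the response of Gadd45b was also higher in KO than in WT, by 1.19 (SE 0.364, adjusted p = 0.0224). Here 17% of genes were called, and 1 of 4 members was. The call was lost with only the groups compared in the fit (adjusted p = 0.0522) and without any 1 of 3 libraries: WT M0 vehicle replicate 3 (0.0773), WT M0 AP-3-84 replicate 1 (0.0651) and KO M0 AP-3-84 replicate 2 (0.102). Gadd45gip1, at 0.57, was called in that comparison only without KO M0 AP-3-84 replicate 3 (0.81, adjusted p = 0.0396). In M1 cells, described without a test, the difference was -1.44 for Gadd45b and -1.29 for Gadd45g. The M2 response set against the M0 response in WT cells gave no call among the 4 genes, where 0.136% of genes were called, with 1.52 (interval 0.42 to 2.63, adjusted p = 0.276) for Gadd45g and -0.78 (interval -1.5 to -0.07, adjusted p = 0.389) for Gadd45b.

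Without AP-3-84, Gadd45b rose with M2 polarization in each genotype. In WT cells it was at 6.06, 5.74 and 8.69 CPM in M0 and at 34.2, 39.8 and 42.4 CPM in M2, a rise of 2.51 (SE 0.248, adjusted p = 5.05e-09). In KO cells it was at 12.8, 12 and 11.6 CPM in M0 and at 52, 43.7 and 37.9 CPM in M2, a rise of 1.87 (SE 0.234, adjusted p = 2.55e-07). Neither pair of groups overlapped. The macrophage markers summed to 5970 to 18500 CPM in KO M2 and 32500 to 39100 CPM in KO M0 vehicle libraries, without overlap, and to 25000 to 31000 and 30400 to 38800 CPM in WT M2 and M0, with overlap. Their part in the members' values was not tested. The M1 libraries entered a comparison that chose the gene, so M1 is described without a test. Gadd45b was at 9.24, 13 and 11.3 CPM in WT M1 (log2 difference from M0 0.72, SE 0.263) and at 119, 113 and 93.7 CPM in KO M1 cells (3.15, SE 0.236, 8.90-fold), above M0 in 3 of 3 libraries of each genotype.

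Gadd45a rose with M1 polarization in KO cells, from 4.45, 2.15 and 4.06 CPM to 8.24, 21.5 and 10.5 CPM, by 1.89 (SE 0.55, adjusted p = 0.00593). Without KO M1 vehicle replicate 2, the library at 21.5 CPM, the rise was 1.39 and was not called (adjusted p = 0.0569). In WT cells its M1 minus M0 value was -0.61 (interval -1.77 to 0.56). Gadd45g was not called between polarization states in either genotype, with values from -0.57 (KO M2) to 0.68 (WT M1). Of the members tested, those called numbered 0 of 3 for WT M1 (15.5% of genes), 1 of 4 for WT M2 (23.4%), 1 of 3 for KO M1 (44.5%) and 2 of 4 for KO M2 (38%), so these counts lie near the share of all genes. The neutrophil markers summed to 962 to 2380 CPM in KO M1 and 521 to 643 CPM in KO M0 vehicle libraries, and the macrophage markers to 16300 to 25700 and 32500 to 39100 CPM. Their part in the members' values was not tested.

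**Figure D4:**
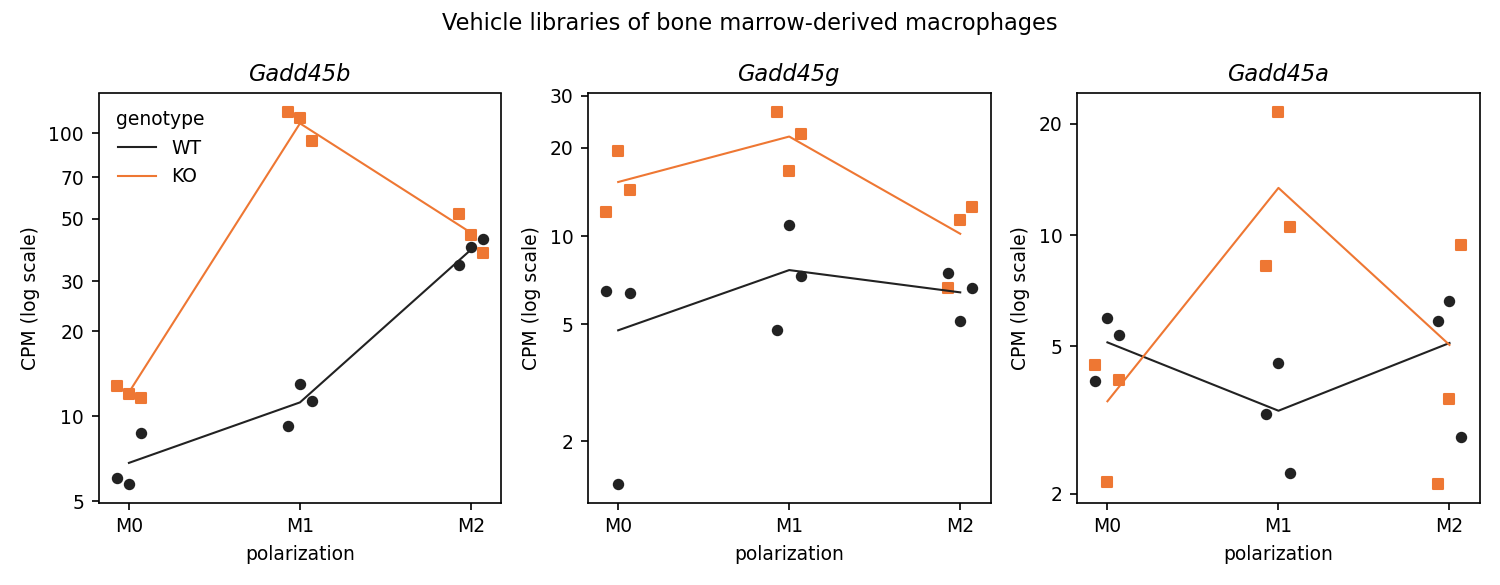
Level (y axis, CPM on a log scale) of Gadd45b, Gadd45g and Gadd45a in vehicle libraries of M0, M1 and M2 macrophages (x axis); black circles are WT libraries, orange squares KO libraries, and lines join group means. Gadd45b peaks at a mean of 109 CPM in KO M1 cells against 11.2 CPM in WT M1 cells, and the genotypes overlap in M2.

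Between the genotypes, with vehicle, Gadd45b and Gadd45g were higher in KO than in WT M0 cells. Gadd45g was at 6.51, 1.43 and 6.39 CPM in WT and at 12.1, 19.4 and 14.3 CPM in KO cells, a rise of 1.66 (SE 0.387, adjusted p = 0.00137). Gadd45b differed by 0.84 (SE 0.262, adjusted p = 0.0137), and its libraries did not overlap. The Gadd45b call was lost without WT M0 vehicle replicate 1 (adjusted p = 0.0637) or 2 (0.0667). Gadd45a was not called (-0.51, interval -1.67 to 0.65). In this comparison 33.2% of all genes were called and 2 of 4 members were. The cells also differed in proliferation genes, with Cdk1 at 35.6 CPM in KO M0 against 252 CPM in WT M0 vehicle cells. The neutrophil markers summed to 521 to 643 CPM in KO M0 and 243 to 458 CPM in WT M0 vehicle libraries, without overlap, with Ly6g at 0 in KO M0. The macrophage markers overlapped, at 32500 to 39100 and 30400 to 38800 CPM. The part of these differences in the members' values was not tested.

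In M1 cells, the comparison that chose Gadd45b, KO libraries lay above WT libraries for all 3 stress genes. Of all genes, 27.8% had an unadjusted p under 0.05 there in edgeR's test. Gadd45b differed by 3.27 (109 ± 13.1 against 11.2 ± 1.88 CPM, 9.65-fold), Gadd45a by 2.00 (13.4 ± 7.11 against 3.35 ± 1.12) and Gadd45g by 1.5 (21.8 ± 4.85 against 7.64 ± 3.06; SD, n = 3), and 11.6% of genes were called. The neutrophil markers summed to 962 to 2380 CPM in these KO libraries and 430 to 560 CPM in the WT ones, and the macrophage markers to 16300 to 25700 and 44000 to 47000 CPM. Their part was not tested. In M2 cells no member was called (3.56% of genes were). Gadd45b overlapped, with a difference of 0.20 (interval -0.23 to 0.63), and so did Gadd45g (0.66, interval -0.11 to 1.44) and Gadd45a (-0.02, interval -1.15 to 1.10). The genotype effect in M2 set against that in M0 gave no call for any member either, where 27.1% of genes were called.

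Gadd45gip1, the mitochondrial ribosome protein, had no called response to AP-3-84. Treated and vehicle libraries overlapped in 8 of 8 populations, and its 7 tested responses had values from -0.40 in WT M0 to 0.17 in KO M0 cells. Its one call was M2 against M0 in KO cells, at 72.4 ± 14.5 against 47.4 ± 9.94 CPM (SD, n = 3), a rise of 0.62 (SE 0.217, adjusted p = 0.0251) with overlapping libraries. That call was lost without any 1 of 4 libraries, KO M0 vehicle replicate 1 or 3 and KO M2 vehicle replicate 2 or 3, with adjusted p from 0.0883 to 0.122. Over the 51 genes fixed for the large subunit of the mitochondrial ribosome, 25 rose and 0 fell in the same comparison, in which 38% of all genes were called, with a median of 0.48 against 0.02 over all genes. Mrpl18 (1.17, adjusted p = 2.05e-06) and Mrpl42 (1.51, adjusted p = 1.16e-05) were among those that rose. In KO M1 against M0, where 44.5% of genes were called, 30 rose and 1 fell, with Mrpl45 at 1.81 (adjusted p = 3.36e-08). In KO against WT M0 cells 15 fell and 1 rose, near the 33.2% of all genes called there, with Mrpl20 at -0.79 (adjusted p = 0.000317). With AP-3-84, 9 of them rose and 1 fell in KO M0 cells, near the 20.7% of all genes called there. All these comparisons share the KO M0 vehicle libraries and are no independent support for one another. In each of the other 6 tested populations 0 were called, where 0% to 4.32% of all genes were. With no filter on low counts 1 was called in KO M1 and 1 in thioglycollate cells.

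Of the kinases of the MAP3K4 branch, few were called with AP-3-84. Transcript levels do not show whether a kinase is active. Of 10 tested kinases 0 were called with AP-3-84 in either peritoneal population, near the share of all genes (1.79% in ascites and 4.32% in thioglycollate cells). Of the 9 tested in bone marrow-derived cells, Mapkapk2, the kinase downstream of p38, fell by 0.66 in WT M2 cells given AP-3-84 (adjusted p = 0.0114), the 1 call of 9 where 1.21% of genes were called. It was also the kinase whose M2 response differed between the genotypes (0.86, adjusted p = 0.0226; 1.77% of genes). With vehicle, Mapkapk2 rose with M1 polarization in WT (0.55, adjusted p = 0.00751, with 0 kinases called without a filter on low counts) and KO cells (0.47, adjusted p = 0.00748). In KO M1 against M0 cells 2 of 9 kinases rose and 2 fell, where 44.5% of genes were called, with the p38 activator Map2k3 at -0.64 (adjusted p = 0.0197) and the p38 kinase Mapk14 at -0.38 (adjusted p = 0.0319). In KO M2 against M0 cells 2 of 9 fell and 0 rose (38% of genes), Mapk14 by 0.66 (adjusted p = 0.000684) and Mapkapk2 by 0.58 (adjusted p = 0.00183). Mapk11, a p38 kinase, rose in KO M0 cells given AP-3-84, from 0.835 to 4.44 CPM (2.37, adjusted p = 0.026; 20.7% of genes), a low level with few counts behind it.

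The cell cycle partners moved in KO M0 cells. All 6 (Cdk1, Ccnb1, Ccnb2, Pcna, Aurka and Cdkn1a) were lower in KO than in WT M0 cells, with a median of -3.14 against 0.03 over all genes, of which 33.2% were called. Cdkn1a is also the p53 target used above to check the genotypes, so its lower level in KO cells is no separate result. All 6 rose from M0 to M1 (44.5% of genes called) and from M0 to M2 (38%) in KO cells. These comparisons and the KO M0 response below share the KO M0 vehicle libraries, so they are no independent support for one another. In WT cells 1 fell in M1 (15.5%) and 3 fell in M2 (23.4%). With AP-3-84, 5 of 6 rose in KO M0 cells, where 20.7% of genes were called, with Cdk1 at 1.80 (35.6 to 124 CPM, adjusted p = 0.000755) and Aurka at 1.77 (adjusted p = 0.00227). Cdkn1a was among those that rose (1.2, adjusted p = 0.00367). In each of the other 6 tested populations 0 of 6 were called, where 0% to 4.32% of all genes were. With no filter on low counts 4 of 6 were called in KO M2 cells. Gadd45b rose in the same KO M0 libraries, and the part of this difference in its rise was not tested. Of the DNA demethylation and repair partners, 0 of 9 were called with AP-3-84 in either peritoneal population, near the share of all genes (1.79% in ascites and 4.32% in thioglycollate cells). Of 7 tested in bone marrow-derived cells, 3 fell and 0 rose from M0 to M1 in each genotype (15.5% of genes called in WT and 44.5% in KO). Tet3, a methylcytosine dioxygenase, fell from M0 to M1 in WT (-1.01, adjusted p = 0.00755) and KO cells (-2.06, adjusted p = 2.13e-07), and Tet2 fell in both as well (-1.33, adjusted p = 0.00516, and -1.02, adjusted p = 0.00769).

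Among 10 transcription factors linked to the control of Gadd45 genes, Egr1 and Atf4 rose with AP-3-84 in both peritoneal populations. Egr1, an immediate early factor, rose by 2.03 in ascites cells (21 to 86.1 CPM, adjusted p = 5.16e-06) and by 2.15 in thioglycollate cells (11.2 to 49.9 CPM, adjusted p = 5.28e-06). Atf4, the effector of the integrated stress response, rose by 0.44 (adjusted p = 0.00782) and 0.68 (adjusted p = 0.000115), and Cebpb rose by 0.55 in thioglycollate cells (adjusted p = 0.000867). In all, 2 of 10 rose in ascites cells (1.79% of genes called), and 3 rose and 1 fell in thioglycollate cells (4.32%). In KO M0 cells given AP-3-84, 2 of 10 rose and 1 fell, where 20.7% of genes were called, with Atf4 at 1.04 (adjusted p = 0.000202), Brca1 at 1.80 (adjusted p = 0.0203) and Foxo3 at -0.97 (adjusted p = 0.00167). In the other 4 tested bone marrow-derived populations 0 were called, where 0% to 1.21% of all genes were. With no filter on low counts 1 was called in WT M0 cells. In WT M2 against M0 cells 2 of 10 rose and 2 fell, where 23.4% of genes were called. Atf4 rose by 0.70 (adjusted p = 0.00619) and Rela, the NF-κB subunit, by 0.60 (adjusted p = 0.0215), while Brca1 fell by 1.32 (adjusted p = 0.0347) and Myc by 2.49 (2.38 to 0.394 CPM, adjusted p = 0.0348). In KO M2 against M0 cells 5 of 10 rose, Atf4 among them, and 4 fell, where 38% of genes were called. The M2 minus M0 value of Rela was lower in KO than in WT cells (difference -1.3, SE 0.272, adjusted p = 0.000727). That difference was larger than its rise of 0.60 in WT cells, so Rela lay lower in KO M2 than in KO M0 cells. Of the 10, 2 were higher and 4 lower by that difference (27.1% of genes called). Gadd45b rose in M2 cells of both genotypes, and the part of Rela in its rise was not tested.

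Of the other growth arrest and DNA damage inducible genes, which act in the integrated stress response, several rose with AP-3-84 in the peritoneal populations. In ascites cells 3 of 6 rose and 0 fell, where 1.79% of genes were called, with a median of 0.68 against 0 over all genes. Ppp1r15a (Gadd34), a phosphatase subunit that reverses the stress block on translation, rose by 1.49 (13.2 to 36.9 CPM, adjusted p = 5.24e-07), Atf3 by 0.81 (adjusted p = 4.05e-06) and Trib3 by 1.09 (adjusted p = 0.00964). In thioglycollate cells 4 of 6 rose and 0 fell (4.32% of genes called), with Trib3 at 2.14 (adjusted p = 3.7e-05) and Ppp1r15a at 1.08 (adjusted p = 1.4e-05). In KO M0 cells 3 of 6 rose, where 20.7% of genes were called, with Chac1 at 3.39 (adjusted p = 0.000732), Trib3 at 3.00 (adjusted p = 0.000938) and Ddit3 (Gadd153, CHOP) at 1.07 (adjusted p = 0.0327). In WT M1 against M0 cells 1 of 6 rose and 1 fell (15.5% of genes called), with Ddit3 at 1.46 (adjusted p = 0.00869) and Ppp1r15a at -1.35 (adjusted p = 0.00282). In KO M1 against M0 cells 5 of 6 rose and 0 fell (44.5% of genes called), with Ddit3 at 3.42 (29.7 to 317 CPM, adjusted p = 7.83e-08) and Ppp1r15a at 1.59 (adjusted p = 3.92e-05). In WT M2 cells, where Gadd45g rose with AP-3-84, 0 of 6 were called (1.21% of genes called), and with no filter on low counts 1 was.

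As a description over the 36 bone marrow-derived libraries, which share groups and depth, the genes whose level followed Gadd45b most closely were Cd40 (Spearman's rho 0.834), Rgl1 (0.829), Cd274 (0.802) and Fabp5 (0.795), out of 8123 genes ranked. Over the 12 peritoneal libraries rho was 0.923 for Rgl1 and 0.622 for Fabp5, and had the other sign for Cd40 (-0.811) and Cd274 (-0.783). For Gadd45g the closest were Rgs1 (0.714), Mfsd11 (0.702), Csrp2, Loxl2 and Zfp655. Their rho in peritoneal libraries was 0.937, 0.0979, -0.0839, -0.133 and 0.573. For Gadd45a they were Dusp1 (0.819), Oser1, Trim13, Ssx2ip and Zwint, with peritoneal rho of -0.112, 0.371, 0.315, -0.727 and -0.0559. For Gadd45gip1 they were Bak1 (0.802), Cct7, Gm17018, Cct8 and Mrpl19, with peritoneal rho of 0.678, 0.888, 0.839, 0.825 and -0.343. Among the members themselves, rho in bone marrow-derived libraries was 0.177 for Gadd45a with Gadd45b, 0.465 for Gadd45a with Gadd45g and 0.304 for Gadd45b with Gadd45g, and in peritoneal libraries 0.776, 0.503 and 0.601.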

How the data were processed

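RNA of 48 libraries was made into QuantSeq FWD 3′ libraries from 100 ng of RNA and read as single 75-base reads, per the labels' protocols. RSEM, Bowtie2 and DESeq2 are named in the submitters' processing notes without role or version, and the genome build is not given in the sources used here. The deposited table holds raw counts, whole numbers, per gene and library. Symbols matched 51596 of 51789 gene IDs.

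Groups follow titles and descriptions. The test was edgeR's quasi-likelihood F-test (version 4.0.16 in R 4.3.3; TMM, filterByExpr by group, robust dispersion), 12 peritoneal and 36 bone marrow-derived libraries apart, over 16955 and 11779 genes, after tests on simulated data. CPM are computed from these counts with TMM scaling. Of 24 comparisons, 17 were tested, 5 of them not for Gadd45b, and 7 described. The members and lists were chosen with earlier results of these data known. Named genes are the members, Cdkn1a, Mdm2, Trp53, from each of 6 lists up to 3 called genes per comparison with the lowest p, and the 5 genes of highest Spearman's rho per member with a mean log2 CPM of at least 3. One gene that the last part of this rule names for Gadd45b is not reported here. Genes printed from a list are some of these, apart from Myc and Cdk1. Myc in WT M2 against M0 cells was printed outside this rule, and Cdk1 in KO against WT M0 cells was chosen after its values were seen. Replicate numbers were checked for pairing by the correlation of deviations from group means, which were 0.208, 0.114 and 0.208 in WT M2 minus M0. Alternatives were median-ratio size factors, total counts, no filter, DESeq2 1.42.0, only the groups compared, all 48 libraries, a replicate block and leaving out each library.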

Additional observations from a re-analysis of the deposited data

Results flagged for a closer look

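The response to AP-3-84 differed between p53 knockout and wild-type cells, by a test of the difference itself, for Gadd45b in M2 cells (1.58, SE 0.308, adjusted p = 0.00547), for Gadd45g in M2 cells (-2.85, SE 0.537, adjusted p = 0.00461) and for Gadd45b in M0 cells (1.19, SE 0.364, adjusted p = 0.0224), all by edgeR's quasi-likelihood test with Benjamini-Hochberg adjustment over all genes.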

How the results depend on the processing

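Of 63 tests of the 4 genes, 13 were called, where the share of all genes called ran from 0% to 44.5% by comparison. Over the alternatives run, 0 of the 13 changed direction, and 8 kept their call in every one. Gadd45g in thioglycollate cells was lost with all 48 libraries in 1 fit (0.7), and the Gadd45b response difference in M0 with only the groups compared (1.21). Leaving out 1 library ended 4 calls at least once, with ranges of 0.94 to 1.38 for the Gadd45b response difference in M0, 0.72 to 1.03 for Gadd45b in KO minus WT M0, 1.39 to 2.15 for Gadd45a in KO M1 minus M0 and 0.48 to 0.78 for Gadd45gip1 in KO M2 minus M0; the cause was not tested.

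The values that turned sign were all uncalled. With median-ratio size factors and with DESeq2, Gadd45gip1 in thioglycollate cells turned to -0.01. With total counts, Gadd45a turned to 0.18 in KO minus WT M2 and -0.21 in WT M2 minus M0, and Gadd45gip1 to -0.25 in WT M1 minus M0. Gadd45a in WT M2 minus M0 also turned to -0.01 with no filter, 0 with only the groups compared and -0.03 with all 48 libraries, which also turned Gadd45a in KO minus WT M2 to 0.01 and Gadd45gip1 in WT M1 minus M0 to -0.01. Leaving out 1 library, the Gadd45a response ranged from -0.84 to 0.72 in KO M0 and -0.06 to 0.17 in thioglycollate cells; Gadd45a from -0.82 to 0.33 in KO minus WT M2, -0.3 to 0.85 in KO M2 minus M0, -0.22 to 0.28 in WT M2 minus M0, -0.31 to 0.84 in the M2 minus M0 genotype difference and -0.77 to 0.04 in the WT M2 minus M0 response difference. The Gadd45b response ranged from -0.14 to 0.18 in WT M0, the Gadd45g response from -0.59 to 0.03 in KO M0, and Gadd45g from -0.02 to 0.73 in WT M2 minus M0. The Gadd45gip1 response ranged from -0.02 to 0.4 in KO M0, -0.2 to 0.04 in KO M1 and -0.04 to 0.08 in thioglycollate cells, and Gadd45gip1 from -0.09 to 0.36 in WT M1 minus M0, -0.28 to 0.17 in WT M2 minus M0, -0.19 to 0.13 in the M2 response difference between genotypes and -0.2 to 0.26 in the WT M2 minus M0 response difference.

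Same-numbered libraries deviated together, with every correlation over 0.1, in 1 of 16 comparisons (WT M2 minus M0). The correlations were 0.289, 0.375 and -0.0872 in the KO M1 response and 0.203, -0.0704 and 0.22 in the WT M2 response. A cutoff on 3 correlations cannot exclude a shared source elsewhere. With the replicate block all 63 tested results kept their side of the threshold (Gadd45g 2.3 in WT M2 cells given AP-3-84, adjusted p = 0.00135). Gadd45gip1 in the genotype difference M2 minus M0 (0.75, adjusted p = 0.066) was called with total counts (0.92), with all 48 libraries (0.81) and in 5 of 12 fits without 1 library, and Gadd45gip1 in KO M1 minus M0 (0.46) with all 48 libraries (0.51) and without KO M0 vehicle replicate 2 (0.65). Gadd45a in ascites cells was called with no filter (0.49, adjusted p = 0.0227). Total-count scaling moved the median of all genes by over 0.1 in 9 of 24 comparisons, from -0.3 to 0.27. List counts moved by over 1.5 times with no filter in 24 of 102 cases. Depth limits Gadd45a most, with as few as 3 counts in a library.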
